A study of Mus musculus with 6 samples.

Results

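The mitochondrial ribosomal proteins were taken as every probe of the deposited raw table whose single annotated gene symbol begins with Mrpl, for the large subunit, or Mrps, for the small subunit. This gave 132 of 45281 probes, which named 76 of 19057 genes. The split is by symbol, not structure: Mrps18a and Mrps30 are now known to sit in the mammalian large subunit and are counted with the small subunit here. The large subunit held 83 probes of 48 genes and the small subunit 49 probes of 28 genes. The measurements came from lens total RNA at postnatal day 4, hybridised to 6 Illumina bead arrays. The groups were 3 samples of Tdrd7 null mice and 3 of Tdrd7 heterozygous mice. All mice were of a mix of C57BL/6J and C3A.Blia. The controls, being heterozygous, also carried a mutant Tdrd7 allele, and no wild-type lens was among the samples. The product of Tdrd7 is a granule protein with Tudor domains, and the comparison asks how lens RNA differs when it is lost. Whether each array stands for its own mouse is not stated in the labels, and the p-values therefore cover only the spread between these samples, which may be technical.

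The mitochondrial ribosome translates the few mRNAs of the mitochondrial genome, all of which encode membrane subunits of the respiratory chain and ATP synthase. Its proteins are encoded in the nucleus, made in the cytoplasm and imported, and they assemble on mitochondrial ribosomal RNA. The small subunit decodes the mRNA, and the large subunit forms the peptide bond. Some of its proteins have a counterpart in bacteria and others occur only in mitochondria. In the lens, mitochondria persist in the epithelium and the outer fiber cells, and differentiating fiber cells degrade them with their other organelles.

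Letters a, b and c name the arrays of each genotype in table order and imply no pairing. Between 13901 and 15765 probes were detected per array, detection meaning a deposited detection p under 0.05. Tdrd7 itself gave raw signals of 13045, 12473 and 13065 on the heterozygous arrays and 1266, 1202 and 1103 on the null arrays. Its probe fell by 3.48 on the log2 scale (SE 0.153, limma adjusted p = 1.47e-05). Of 15 lens fiber markers 14 were measured, Gja3 was detected on no array, and their summed log2 signal lay between 18.58 and 18.62 on the 6 arrays. Such a sum is set by the brightest markers. By sign 10 of the 14 fiber markers were higher and 4 lower in null lens, with a median log2 difference of 0.03. Their differences ran from -0.44 to 1.92, and none was called. The 10 lens epithelium markers, of the layer that keeps mitochondria, summed to log2 signals of 15.08 to 15.12 on the heterozygous and 14.71 to 15.07 on the null arrays, a sum in which Cryab, also a fiber marker, is the brightest. By sign 4 of the 10 were higher in null lens and 6 lower, with log2 differences of -0.44 to 0.34, and none passed the test. In 3 of the 10 (30%) the groups did not overlap, 2 higher and 1 lower, beside 11.4% of all genes. That difference in share was not tested. Of the vascular markers 8 of 9 were measured, 6 of them higher in null lens by sign, with summed log2 signals of 8.14 to 8.56 on the heterozygous and 8.50 to 8.83 on the null arrays. Their median log2 difference was 0.44, and in 3 of the 8 (37.5%) the groups did not overlap, beside 11.4% of all genes. Of 6 red blood cell markers 4 were measured, all higher by sign, with a median of 0.71 and overlapping groups. No marker of these 2 lists was called. The part of these cell types in the values below was not tested. In bulk RNA, fewer cells of a type and less RNA per cell cannot be told apart.

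Most members were detected in this tissue. Of the large subunit 65 of 83 probes (78.3%) were detected on at least 3 of 6 arrays, 58 of them on all 6, while 12 were detected on none. These probes covered 44 of 48 genes (91.7%). Of the small subunit 42 of 49 probes (85.7%) passed the same filter, all 42 on all 6 arrays, and they covered 27 of 28 genes (96.4%). Over the whole table the filter kept 8626 of 19057 genes (45.3%). Both subunits were therefore measured more completely than the table as a whole.

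The 5 genes that were not measured each gave signals near the array background. Mrpl19 and Mrpl32, of the large subunit, were detected on no array. Mrpl45, which in mammals tethers the ribosome to the inner mitochondrial membrane, and Mrpl35 were each detected on 1 array, and so was Mrps14 of the small subunit. Mrps14 gave a mean raw signal of 77.3 in heterozygous and 76.9 in null lens, against array medians over all probes of 69.0 to 76.6. These genes have only an upper bound here and do not enter the counts that follow.

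A gene is represented below by its probe with the highest mean signal, and levels are given as raw signal on the linear scale. Signals of different probes depend on their sequence, so the bright and dim genes named here are examples, and no order of transcript levels between genes follows. The large subunit genes spanned mean raw signals of 87.0 to 2398 with a median of 509, and the small subunit genes 104 to 2977 with a median of 463. After normalisation the median log2 signal was 8.82 for large subunit genes and 8.68 for small subunit genes, beside 6.56 over all measured genes. Mrpl28 gave 2462 ± 62.9 in heterozygous and 2333 ± 362 in null lens (mean ± SD, n = 3 each). Mrpl13, which in bacteria binds early to the large subunit RNA, gave 2096 ± 67.4 and 1943 ± 79.1. Mrpl53, found only in mitochondria, gave 2486 ± 84.0 and 2182 ± 149. On the normalised scale all 3 null arrays lay below all 3 heterozygous arrays for Mrpl53, whose log2 difference, null minus heterozygous, was -0.18 (SE 0.143, 95% interval -0.50 to 0.14, limma adjusted p = 0.964).

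Among small subunit genes, Mrps33 gave 3046 ± 34.2 in heterozygous and 2908 ± 85.7 in null lens. Mrps26 gave 1686 ± 137 and 1619 ± 196. At the other end, Mrpl57 and Mrpl51 were each detected on 5 of 6 arrays, with raw signals of 78.5 to 96.7 for Mrpl57 and 79.9 to 96.2 for Mrpl51. Mrpl39, Mrps27 and Mrps2 were detected on all 6 arrays at raw signals of 88.0 to 115, 88.4 to 133 and 106.5 to 119. After normalisation the genotypes overlapped for each of these 7 genes.

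No member passed the test between genotypes. The test was limma's moderated test, two-sided, with Benjamini-Hochberg adjustment over all 14636 measured probes. Of the 107 member probes 0 were called at an adjusted p under 0.05, where 0.0137% of all probes were, and 0 of the 71 representative probes, where 0.0232% of all genes were. The smallest adjusted p of any member was 0.964. One large subunit gene, Mrpl2, and no small subunit gene had an unadjusted p under 0.05, where 4.01% of all genes did.

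Of the 44 large subunit genes 21 were higher and 23 lower in null lens by sign, with a median log2 difference of -0.01 and a range of -0.53 to 0.31. Of the 27 small subunit genes 9 were higher and 18 lower, with a median of -0.05 and a range of -0.39 to 0.60. Over all measured genes 47.8% were higher by sign and the median was also -0.01. The median of the members' deviations from their means over all 6 arrays was taken on each array. These array medians had a pooled SD within genotypes of 0.0661 for the large and 0.0332 for the small subunit. In size the median difference was smaller than this SD in the large subunit and larger in the small subunit. The SD is a spread of single arrays and not of a difference between groups, and neither median difference was tested. The standard error of a single gene had a median of 0.167 in the large and 0.158 in the small subunit. Within 0.2 of 0 on the log2 scale lay 34 large and 20 small subunit genes. The 95% interval of the difference lay inside a 2-fold change either way for 43 of 44 large and 26 of 27 small subunit genes. It lay inside a 1.5-fold change for 34 and 21 of them, together 77.5% of members, beside 58.8% of all genes.

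**Figure D1:**
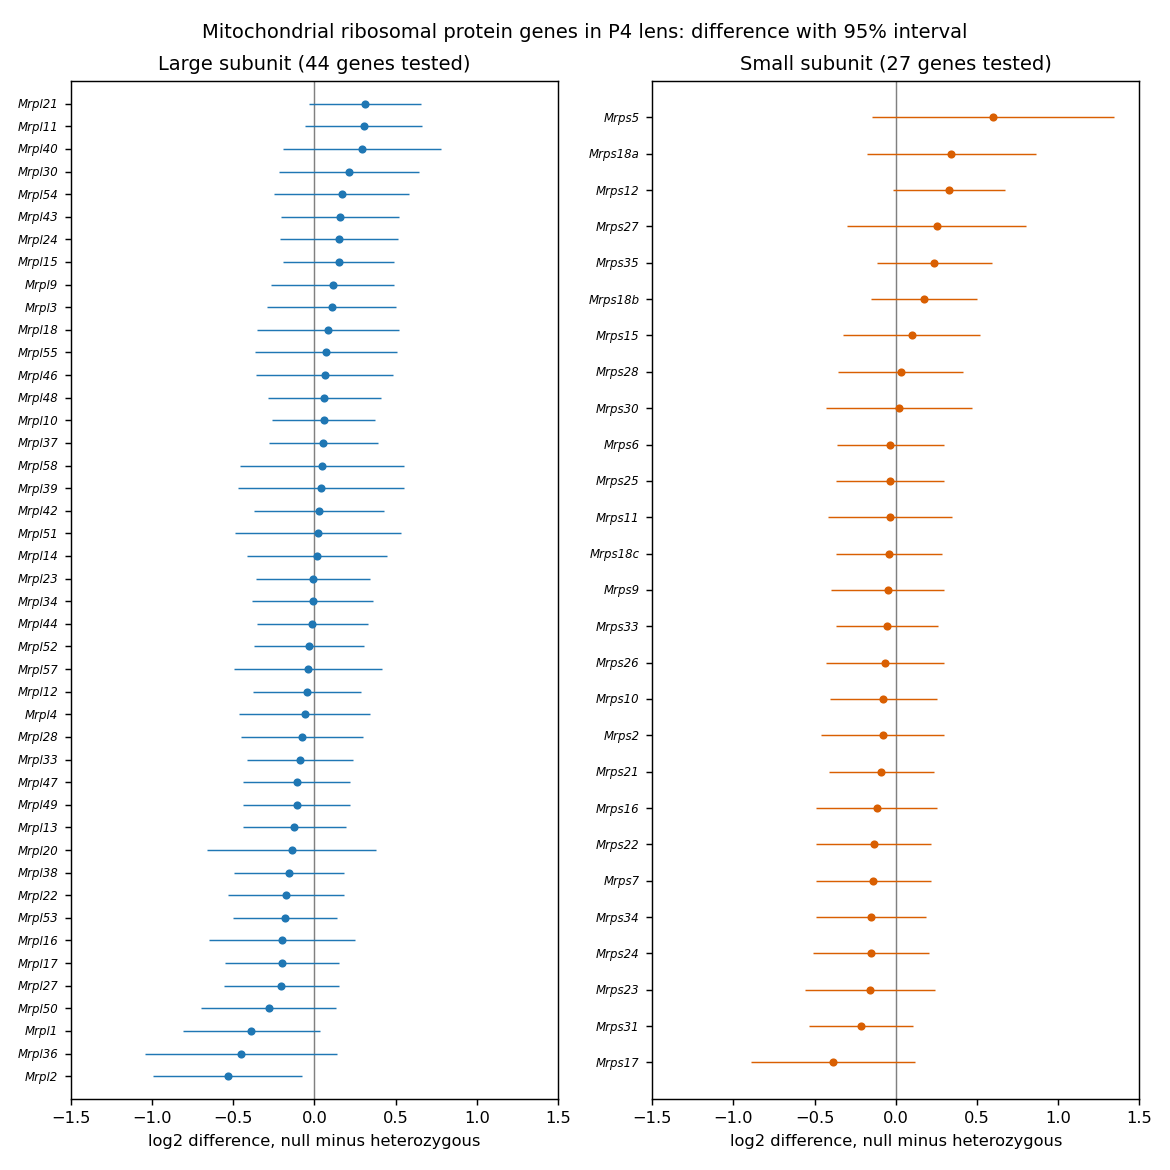
Log2 difference between null and heterozygous lens (x axis, null minus heterozygous) for each measured mitochondrial ribosomal protein gene, large subunit on one panel and small subunit on the other, as points with 95% intervals from limma. The points spread on both sides of 0, from -0.53 to 0.31 in the large and from -0.39 to 0.60 in the small subunit, and the interval of Mrpl2 alone does not reach 0.

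Genes classed as having a bacterial counterpart and genes classed as found only in mitochondria gave close medians. In the large subunit the 25 with a counterpart were higher in 10 and lower in 15 by sign, with a median log2 difference of -0.04, and the 19 others were higher in 11 and lower in 8, with a median of 0.03. In the small subunit the 17 with a counterpart had a median of -0.04 and the 10 others a median of -0.06. Their spread was less alike. Within 0.2 of 0 lay 68% of large subunit genes with a counterpart and 89.5% of the others. In the small subunit these shares were 76.5% and 70%. The classes were assigned from general knowledge and the difference between them was not tested. They are approximate, since Mrpl47 and Mrpl55 were counted with the others but are also named as counterparts of bacterial proteins.

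Mrpl2 (probe ILMN_2842366) encodes the counterpart of bacterial L2, a protein beside the peptidyl transferase center. Its raw signal was 426, 405 and 365 on the heterozygous arrays and 338, 231 and 332 on the null arrays. Every null array lay below every heterozygous array, and null b was lowest. The log2 difference was -0.53 (SE 0.205, 95% interval -0.99 to -0.08, unadjusted p = 0.0269, limma adjusted p = 0.964). Without null b the difference was -0.30.

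Mrpl36 encodes the counterpart of the small bacterial protein L36. It gave raw signals of 542, 579 and 506 on the heterozygous and 512, 279 and 507 on the null arrays, so that null b alone stood far below the others. After normalisation the groups were just apart, and the log2 difference was -0.45 (SE 0.264) with null b and -0.10 without it. Mrpl50, a mitochondria-only protein, showed a like picture, with 847, 761 and 723 in heterozygous and 709, 521 and 770 in null lens. Its groups overlapped in raw signal and were just apart after normalisation, with a log2 difference of -0.28 (SE 0.185), or -0.10 without null b. Mrpl50 lies on the chromosome that carries Tdrd7, with 32 protein-coding genes between them in the RefSeq gene table. Mrpl37, Mrps15 and Mrpl20 lie on it too, with 314, 559 and 1036 protein-coding genes between each and Tdrd7. Their log2 differences were 0.06, 0.10 and -0.14, and the part of position was not tested. Mrpl1, the counterpart of a protein of the bacterial L1 stalk, gave 213, 229 and 229 in heterozygous and 211, 163 and 180 in null lens. Its groups overlapped after normalisation, with a log2 difference of -0.39 (SE 0.189), or -0.24 without null b, while another probe of the gene gave 0.03.

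On the other side stood Mrpl21, whose bacterial counterpart binds the large subunit RNA. Its raw signal was 713, 823 and 812 in heterozygous and 882, 1069 and 990 in null lens, and all null arrays were above all heterozygous arrays. The log2 difference was 0.31 (SE 0.154, 95% interval -0.03 to 0.66, unadjusted p = 0.0723). Mrpl11, of the base of the stalk that binds translation factors, gave 331, 389 and 343 in heterozygous and 375, 476 and 440 in null lens. Its groups overlapped in raw signal, where heterozygous b was above null a, and stood apart by a small margin after normalisation, with a log2 difference of 0.30 (SE 0.161).

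Mrpl40 and Mrpl30 followed with a smaller margin. Mrpl40 gave 303, 338 and 344 in heterozygous and 334, 529 and 346 in null lens, a log2 difference of 0.29 (SE 0.218) that was 0.06 without null b. Mrpl30 gave 943, 1251 and 1121 in heterozygous and 1031, 1577 and 1311 in null lens, a log2 difference of 0.21 (SE 0.192) that was also 0.06 without null b. Without heterozygous a Mrpl40 differed by 0.20 and Mrpl30 by 0.09, and without null a Mrpl30 differed by 0.35. The groups of both genes overlapped.

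In the small subunit, Mrps12 encodes the counterpart of bacterial S12, a protein of the decoding center. Its raw signal was 598, 628 and 582 on the heterozygous and 643, 867 and 771 on the null arrays, with all null arrays higher. The log2 difference was 0.33 (SE 0.154, 95% interval -0.02 to 0.67, unadjusted p = 0.0614, limma adjusted p = 0.964). A further Mrps12 probe gave -0.09, so the probes of this gene did not show the same direction.

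Mrps5, whose bacterial counterpart lies near the mRNA entry channel, gave 138, 132 and 130 in heterozygous and 135, 287 and 141 in null lens. Null b was about the only array that differed, and the log2 difference of 0.60 (SE 0.333) was 0.13 without it. Mrps18a, one of the Mrps symbols that belong to the large subunit by structure, gave 428, 456 and 452 in heterozygous and 436, 816 and 489 in null lens. Here too null b stood above the rest, and the log2 difference of 0.34 (SE 0.233) was 0.06 without it. Mrps35, a mitochondria-only protein, gave 192, 196 and 169 in heterozygous and 200, 197 and 237 in null lens. Its groups were apart by a narrow margin, with a log2 difference of 0.24 (SE 0.158) that was 0.13 without null c.

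Lower by sign were Mrps17, Mrps31, Mrps34 and Mrps24. Mrps17, the counterpart of a bacterial protein that binds the small subunit RNA, gave 581, 613 and 478 in heterozygous and 524, 324 and 509 in null lens. Its log2 difference was -0.39 (SE 0.227), or -0.12 without null b. Mrps31, mitochondria-only, gave 492, 510 and 462 in heterozygous and 440, 440 and 412 in null lens, and every null array was lower. Its log2 difference was -0.21 (SE 0.144), while its other measured probes gave 0.17 and 0.12.

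Mrps34, a protein needed in mice for a stable small subunit, gave 967, 1044 and 1016 in heterozygous and 908, 1011 and 858 in null lens, with overlapping groups and a log2 difference of -0.15 (SE 0.151) that was -0.07 without null c. Mrps24, the counterpart of bacterial S3, gave 2389, 2587 and 2560 in heterozygous and 2260, 1884 and 2619 in null lens. Its log2 difference was -0.15 (SE 0.160), or -0.04 without null b and -0.24 without null c.

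**Figure D2:**
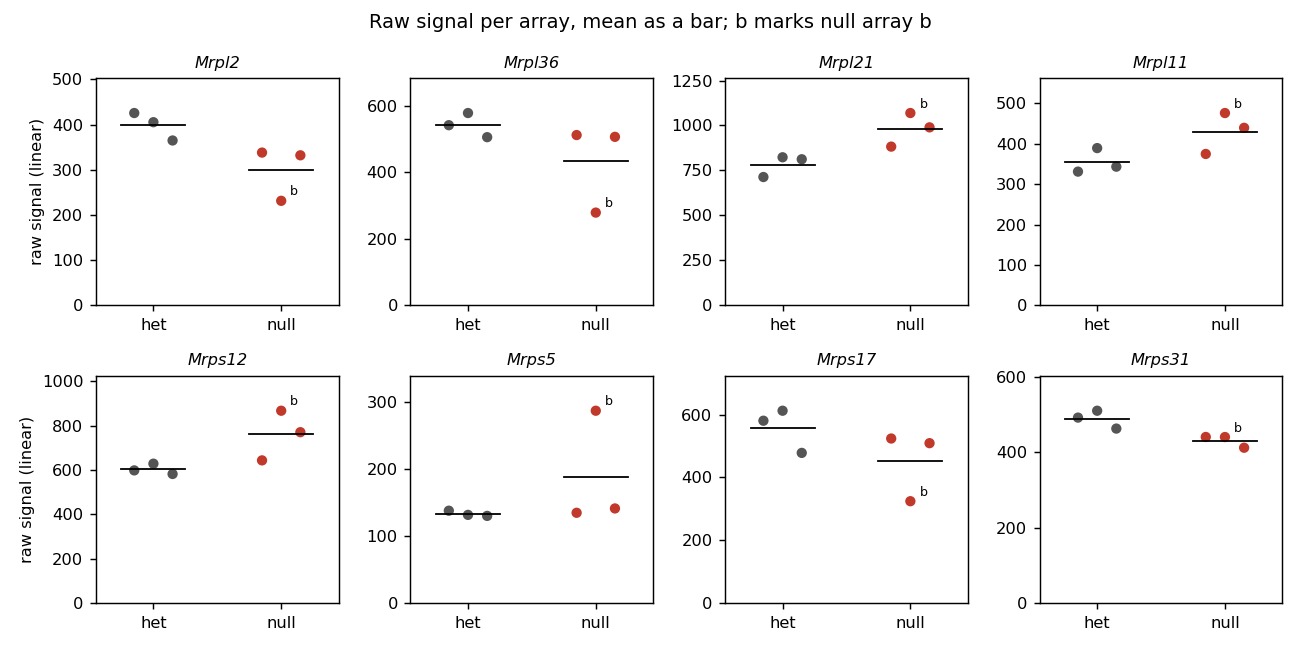
Raw signal on a linear axis that starts at 0 for 8 of the genes described above, 1 panel a gene, with each of the 3 heterozygous and 3 null arrays as a point, the group mean as a bar and null array b marked. Null b lies apart from the other null arrays for Mrps5, Mrpl36 and Mrps17, and the arrays of a genotype stay together for Mrps31.

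After normalisation the groups did not overlap for 6 of 44 large subunit genes (13.6%) and 3 of 27 small subunit genes (11.1%), where 11.4% of all genes had groups apart. Higher were 2 of each subunit, beside 5.23% of all genes, and lower were 4 of the large and 1 of the small, beside 6.13%. Those higher in null lens were Mrpl21, Mrpl11, Mrps12 and Mrps35, and those lower were Mrpl2, Mrpl36, Mrpl50, Mrpl53 and Mrps31. The shares in both subunits were near that of the whole table. Without null b the groups stood apart for 15 large (34.1%) and 9 small subunit genes (33.3%), above the 23.6% of all genes, and the difference was not tested.

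Probes of 1 gene often differed in direction. Of 14 large subunit genes with several measured probes 6 had all probes on the same side of 0 and 8 did not. Of 11 small subunit genes 3 had all probes on the same side and 8 did not. Only for Mrpl49 did probes lie beyond 0.2 both ways: its brightest probe differed by -0.11 on the log2 scale and the others by 0.62, -0.36 and 0.28. The probe that differed by 0.62 gave raw signals of 92.8, 153 and 87.4 on the null arrays, with null b alone far above. The brightest Mrpl49 probe had a mean raw signal of 300 in heterozygous lens and the others 83.7 to 94.9, near the background. Which of them reads the Mrpl49 transcript best was not tested.

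The arrays themselves differed in how far members strayed. The deviation of a gene on an array is its log2 signal there minus its mean on the other 5 arrays. Null b was the farthest of the 6 arrays for 18 of 44 large subunit genes (40.9%) and 15 of 27 small subunit genes (55.6%), as it was for 45.2% of all genes. On null b 13 large subunit genes deviated by more than 0.4, 6 upward and 7 downward, and so did 7 small subunit genes, 4 upward and 3 downward. On every other array at most 2 genes of either subunit did. Members did not stray more than the table, since 35.3% of all genes passed 0.4 on null b, beside 29.5% of the large and 25.9% of the small subunit.

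The largest upward deviations on null b were those of Mrps5 (1.48), Mrps18a (0.88), Mrps27 (0.78), Mrpl40 (0.75) and Mrpl58 (0.67). Mrpl58 is a peptidyl-tRNA hydrolase that has become part of the large subunit. The largest downward deviations were those of Mrpl36 (-1.11), Mrpl2 (-0.88), Mrps17 (-0.87), Mrpl20 (-0.71) and Mrpl50 (-0.61). Both subunits thus had members far up and far down on the same array. Their medians hardly moved: the median deviation on null b was 0.07 for the large and -0.06 for the small subunit. The highest median of any array was that of heterozygous c, at 0.10 for the large and 0.08 for the small subunit, and the lowest for the large subunit was that of null c, at -0.10.

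**Figure D3:**
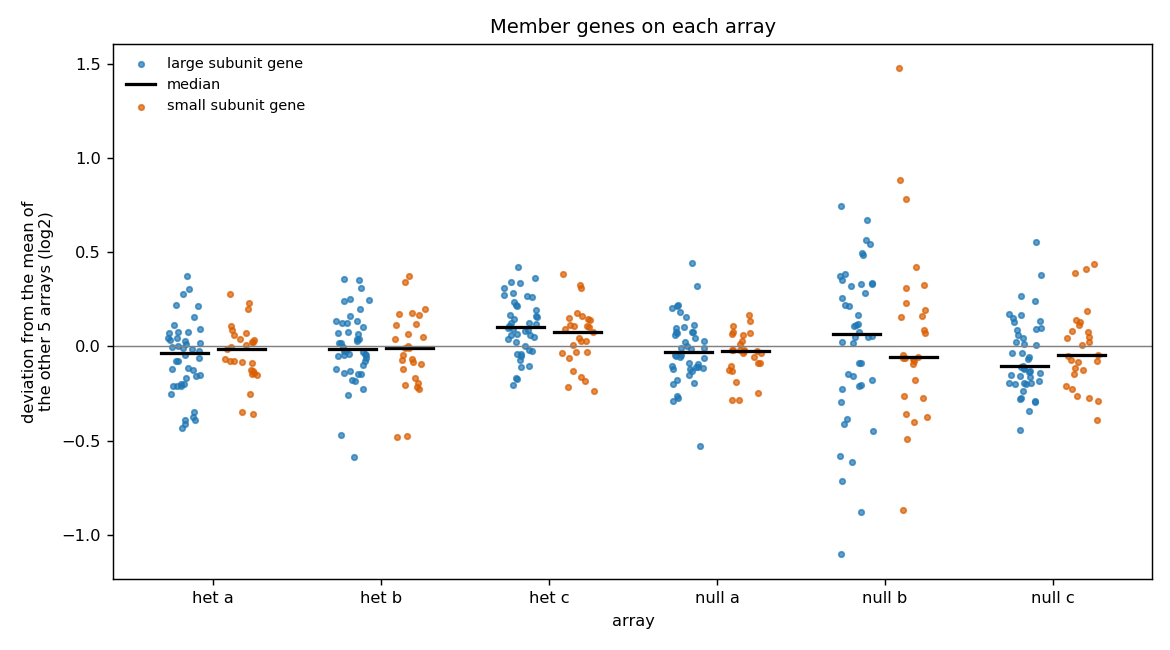
Deviation of each measured member gene on each array from its mean on the other 5 arrays (y axis, log2), with large and small subunit genes as points of separate color and the subunit median as a line. The medians stay between -0.10 and 0.10 on all 6 arrays, and the points on null b spread from -1.11 to 1.48.

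Lens epithelium markers also stood apart on null b, where their median deviation was -0.46 and 2 of 10 lay above the mean of the other arrays. On heterozygous c it was -0.35 with 3 of 10 above. Mesenchyme markers, of which 4 of 9 were measured and Col1a1, Col3a1, Dcn and Lum were detected on no array, had median deviations of -0.48 on null b and -0.62 on heterozygous c. Their summed log2 signal was 9.23 to 10.41 on the heterozygous and 9.37 to 10.50 on the null arrays. The part of these markers in the members' deviations was not tested.

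Co-variation among members was weak. Over the 6 arrays the median Pearson correlation of log2 signal was 0.0986 over the 946 pairs of large subunit genes, -0.0123 over the 351 pairs of small subunit genes and 0.0688 over the 1188 pairs that cross the subunits. Spearman's medians were 0.0857, 0.0286 and 0.0857. Over all pairs of measured genes the Pearson median was 0.00347 and the Spearman median 0.0286. Positive were 54.7% of large, 49.0% of small and 53.2% of cross-subunit pairs, beside 50.2% of all pairs. These are descriptions over 6 arrays, and pairs share both arrays and genes.

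With the genotype means taken out, the Pearson medians were 0.112, -0.00585 and 0.109. Without null b they were 0.180 within the large subunit, 0.0776 within the small subunit and 0.142 between them, while the median over all pairs was -0.0007. Without heterozygous c the large subunit median was 0.0319. The members whose signal went most with the others were Mrpl12, Mrpl42 and Mrpl58, with median correlations of 0.377, 0.371 and 0.334. Mrpl12 is a stalk protein that in mammals is also known to bind the mitochondrial RNA polymerase. Its raw signal was 660, 699 and 685 in heterozygous and 658, 742 and 627 in null lens. On the normalised scale, which the correlations use, heterozygous c was highest at 9.39, beside 9.38 on null b, and null c lowest at 9.12. Going least with the others were Mrpl52 and Mrps15, with medians of -0.323 and -0.282.

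Of the related genes of the same pathway none passed the test. Adjusted p-values in these sentences are limma's over all probes and were 0.964 for each gene named unless given otherwise. Of the mitochondrial ribosomal proteins under other symbols, Chchd1 gave -0.16 on the log2 scale, or 0.03 without null b, Ptcd3 -0.13, or 0.05 without heterozygous c and 0.004 without null a, and Dap3 -0.0047 (adjusted p = 0.999). Of 22 measured assembly and rRNA modification factors 9 were higher and 13 lower by sign, with a median of -0.06. Rbfa, which helps mature the small subunit, gave 196, 198 and 167 in heterozygous and 151, 167 and 152 in null lens, groups that lay apart after normalisation, with a log2 difference of -0.36 (SE 0.144). C1qbp, a matrix protein needed in mice for mitochondrial translation, gave 323, 322 and 301 in heterozygous and 340, 588 and 388 in null lens. All null arrays of C1qbp were higher, and its log2 difference of 0.49 (SE 0.215) was 0.23 without null b. Dhx30, an RNA helicase of ribosome assembly, differed by -0.22, or -0.13 without heterozygous a and -0.11 without null b.

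Of 14 translation factors 7 were higher and 7 lower by sign, with a median log2 difference of -0.01. Pdf, the mitochondrial peptide deformylase, differed by 0.39, or 0.25 without null c. Guf1, a back-translocase, differed by 0.22, or 0.12 without heterozygous c and 0.14 without null c. The initiation factor Mtif3 differed by -0.24, or -0.42 without null b and -0.05 without null c. Of 15 mitochondrial aminoacyl-tRNA synthetases and related enzymes 8 were higher and 7 lower, with a median of 0.01. Gatb, a subunit of the enzyme that makes glutaminyl-tRNA, differed by 0.46, or 0.20 without null b, Cars2 by 0.46, or 0.26 without null b, and Tars2 by 0.40, or 0.17 without null b and 0.60 without heterozygous c. Of 12 genes of mitochondrial genome transcription and maintenance 6 were higher and 6 lower, with a median of -0.05. In 4 of the 12 (33.3%) the genotypes stood apart, beside 11.4% of all genes, among them the transcription termination family member Mterf2, whose log2 difference was -0.43, or -0.29 without null b. The polymerase subunits Polg2 and Polg, also among the 4, differed by -0.25 and 0.24. Polg was detected on 1 heterozygous and 3 null arrays, so it passed the filter only through the group where it was higher. Mean raw signals in heterozygous and null lens were near the background. They were 97.6 and 83.2 for Mterf2, 104 and 94.0 for Polg2, and 80.4 and 83.2 for Polg. The share of 33.3% rests in part on such probes, and its difference from that of all genes was not tested.

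Of 9 nuclear regulators of mitochondrial genes 2 were higher and 7 lower by sign, with a median log2 difference of -0.04. Nfe2l2, the regulator of the oxidative stress response, gave 87.4, 87.7 and 74.4 in heterozygous and 93.2, 101 and 93.4 in null lens. Every null array was higher, near the background, and the log2 difference was 0.58 (SE 0.155, unadjusted p = 0.00414, limma adjusted p = 0.964). It was 0.20 in the authors' deposited values. Nrf1, the respiratory factor, differed by -0.17, or -0.11 without heterozygous a and -0.04 without null b. The coactivator Ppargc1b differed by -0.19, or -0.07 without either heterozygous c or null a, and Ppargc1a and Yy1 were detected on no array.

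Of nuclear-encoded subunits of the respiratory chain, complex II among them, and of ATP synthase, 39 were measured. Of these 16 were higher and 23 lower by sign, with a median log2 difference of -0.03, and 7 (17.9%) had groups that did not overlap, beside 11.4% of all genes. Of these 7, 6 were lower and 1 higher, where 6.13% of all genes were apart and lower and 5.23% apart and higher. The difference from all genes was not tested, and 0 of the 39 were called. Null b was the lowest array for Ndufa4, Ndufa6, Ndufb8, Ndufv2 and Cox4i1, all apart and lower. Ndufa5, of complex I, gave 1116, 1115 and 1170 in heterozygous and 1018, 777 and 764 in null lens. All null arrays were lower for Ndufa5, with a log2 difference of -0.49 (SE 0.181), or -0.41 without null b. Sdhb, of complex II, differed by 0.36, or 0.18 without null b, and Ndufa6 by -0.26. Of 12 outer membrane, import and mitochondrial mass genes 6 were higher and 6 lower, with a median of -0.01. Tomm22, an import receptor, differed by -0.38, but leaving out 1 array gave -0.69 (null b), -0.59 (heterozygous b), -0.13 (null c) and -0.08 (heterozygous c). The channel Vdac2 differed by -0.18. Timm50, of the inner membrane import complex, differed by 0.23, or 0.04 without null b, 0.12 without heterozygous b and 0.35 without null c.

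Promoters of nuclear genes for mitochondrial proteins are known to bind NRF1, ETS factors such as GABP, and YY1. RefSeq windows of 300 bases, from 250 before to 50 after the transcript start on build GRCm38.p6, were matched for 67 of the 76 member genes by symbol. Mrpl13, Mrpl15, Mrpl19, Mrpl38, Mrpl4, Mrpl54, Mrps28, Mrps34 and Mrps35 had no entry. The letters searched on both strands were GCGCANGCG for NRF1, with N for any base, CCGGAAG for ETS and AAGATGGCG for YY1, and matches of different sets could overlap. The NRF1 letters are a core of its consensus, set after a form longer by 1 base had been searched. The windows below are of members named above that hold a match, with the matched letters in capitals. Mrpl30 lies on chr1:37890227-37890526 and holds NRF1 letters on each strand, Mrpl36 on chr13:73330759-73331058 and holds YY1 letters on the minus strand, and Mrps18a on chr17:46110754-46111053 and holds first ETS and then YY1 letters. All are printed 5′ to 3′ on the plus strand, which is the strand of each gene.
Mrpl30: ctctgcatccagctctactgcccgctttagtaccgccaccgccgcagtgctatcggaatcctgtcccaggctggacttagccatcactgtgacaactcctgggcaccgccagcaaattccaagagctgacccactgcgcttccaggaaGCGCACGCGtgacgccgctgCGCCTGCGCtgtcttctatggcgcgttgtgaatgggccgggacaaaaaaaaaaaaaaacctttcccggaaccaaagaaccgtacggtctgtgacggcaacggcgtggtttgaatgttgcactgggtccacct
Mrpl36: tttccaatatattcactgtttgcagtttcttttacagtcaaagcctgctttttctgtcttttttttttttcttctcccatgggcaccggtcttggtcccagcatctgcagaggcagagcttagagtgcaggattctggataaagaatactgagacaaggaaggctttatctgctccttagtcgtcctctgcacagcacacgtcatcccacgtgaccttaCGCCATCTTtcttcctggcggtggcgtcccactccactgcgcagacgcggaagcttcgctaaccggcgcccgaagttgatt
Mrps18a: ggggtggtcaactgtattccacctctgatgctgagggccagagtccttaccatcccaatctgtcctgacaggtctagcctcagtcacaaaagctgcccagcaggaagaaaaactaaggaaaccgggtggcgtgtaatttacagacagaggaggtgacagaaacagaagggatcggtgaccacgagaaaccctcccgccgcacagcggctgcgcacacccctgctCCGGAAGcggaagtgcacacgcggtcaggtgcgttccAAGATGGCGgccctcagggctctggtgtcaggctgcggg

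NRF1 letters were found for 12 of 42 large subunit genes (28.6%) and 4 of 25 small subunit genes (16%), beside 9.63% of 17492 protein-coding genes. ETS letters were found for 15 large (35.7%) and 11 small subunit genes (44%), beside 12.9%. YY1 letters were found for 4 large (9.52%) and 4 small subunit genes (16%), beside 2.14%. All these shares lay above that of protein-coding genes, and they describe letters in a window and not binding. No share was taken over detected genes or over promoters of like base content. Whether the higher shares are particular to these genes was therefore not tested.

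**Figure D4:**
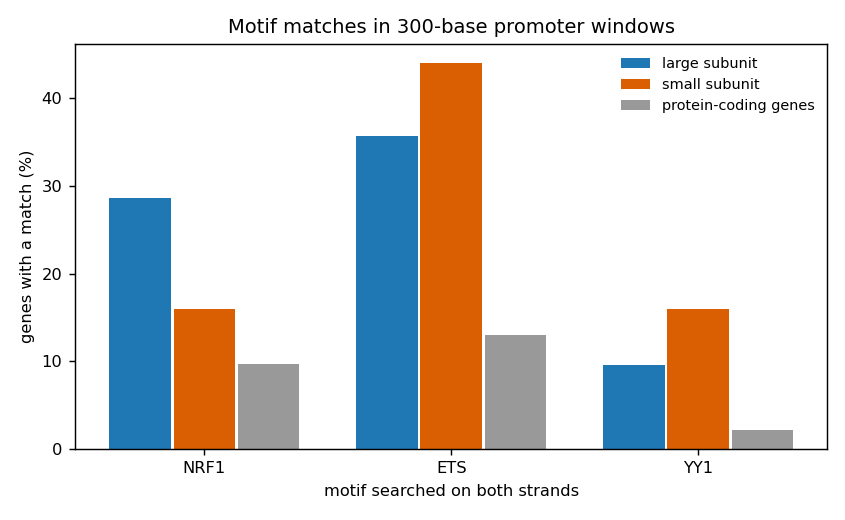
Share of genes (y axis, percent) with at least 1 match to the NRF1, ETS or YY1 letters in the promoter windows, as bars for large subunit genes, small subunit genes and all protein-coding genes of the table. The bars of both subunits are higher than that of protein-coding genes for all 3 sets of letters, from 16% against 9.63% for NRF1 in the small subunit to 44% against 12.9% for ETS there.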

How the data were processed

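Per the labels' protocols, lens total RNA was extracted on columns and made into biotinylated cRNA. The deposited raw table gives a linear intensity and a detection p-value for each probe and array, per the file headers. A second deposited table holds intensity values that the authors normalised. How they did so, and the scanner's own correction, is not given in the sources used here. By platform annotation, 34885 of 45281 probes had a single symbol.

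Raw intensities went through neqc of limma 3.58.1 (R 4.3.3; offset 16, quantile, log2). The filter kept 14636 probes with detection p under 0.05 on 3 or more arrays. All were fitted with lmFit and eBayes, null minus heterozygous, two-sided and without covariates, and adjusted by Benjamini-Hochberg at a threshold of 0.05. The steps were tested on simulated data, and the number of arrays limits the precision.

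Members and lists were chosen with earlier results of these data known. Named genes were, of each subunit, the 4 with the smallest p in each direction and the 3 with the highest and lowest signal. Also named were members detected on no array, with probes beyond 0.2 both ways, or with groups apart and a log2 difference beyond 0.4, and up to 3 genes of each companion list. Members in small counts, with groups apart, extreme on an array or at either end of co-variation were named after their values were seen. Alternatives covered background, normalisation, filter, variance model, array weights, the authors' table, the probe rule and leaving out each array. Replicate numbers stand only in the authors' table, and no label says that a number marks a shared litter or day. Deviations of same-numbered samples correlated at 0.154, -0.159 and -0.148, and those of unlike-numbered samples at -0.237 to 0.234. With so few samples these values cannot tell whether the numbers pair them.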

Additional observations from a re-analysis of the deposited data

How the results depend on the processing

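No mitochondrial ribosomal probe was called under any alternative run, while the calls over all probes ranged from 1 to 13, the 13 with array weights. The median log2 difference stayed between -0.05 and 0.03 for the large subunit and between -0.07 and -0.03 for the small subunit. With the authors' deposited values and the replicate number as a block (replicate block), 0 members were called and the medians were -0.02 and -0.06; the block changed no call of a member. Groups did not overlap for 5 to 15 large and 2 to 9 small subunit genes over the alternatives, beside 10.6% to 23.6% of all genes. Co-variation moved with several settings. Its median Pearson correlation with median scaling was 0.1561 within the large and 0.04491 within the small subunit, where all pairs gave 0.0211. With the authors' values it was 0.2048, 0.1396 and, between the subunits, 0.1783, where all pairs gave 0.0348. Leaving out 1 array gave 0.03192 to 0.1796 within the large, -0.05097 to 0.07757 within the small subunit and 0.0484 to 0.1421 between them. The cause was not tested. Of 16 named members 1 changed sign, Mrps31, at 0.02415 with the mean of its probes. Of the companions, Dap3 was 0.001496 with median scaling, 0.07632 with array weights and 0.1009 with the mean of its probes. Leaving out 1 array gave -0.05658 to 0.05549 for Dap3, -0.3383 to 0.05267 for Ptcd3 and -0.2522 to 0.02618 for Chchd1. With the mean of probes, Mrps12 was 0.12, Mrpl1 -0.18 and Rbfa -0.06. The lowest adjusted p by limma under any alternative was 0.43 for a named member and 0.239 for a companion. Signals near the background limit Mrpl57, Mrpl51, Mrpl39, Mrps27 and Mrps2.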
